A study of Mus musculus with 9 samples.

Results

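The 93 genes described here were selected on measured values: in each, the lowest of the 4 libraries labelled NHD13/MSI2 stood at least 6 times above the highest of the 3 control libraries. Values were in CPM, each count being scaled to a library total of 1000000. A member also needed 50 or more counts in each library labelled NHD13/MSI2, and genes on the X and Y chromosomes were left out. The members were drawn from 24060 named genes. Of the 9282 genes with enough counts, they made up 1.00%. The members' values in this contrast describe the choice and are given gene by gene with no test. Where calls in this contrast are counted below, those of members describe the choice as well.

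The RNA came from Lin lo Sca1+ Kit+ (LSK) bone marrow cells, a sorted fraction that holds haematopoietic stem and progenitor cells. Bone marrow carrying the CD45.2 marker had been transplanted into lethally irradiated congenic CD45.1 mice, which were then fed doxycycline for 3 months, and CD45.2 LSK cells were sorted. The control donors were C57BL/6 mice (3 libraries). The NHD13 donors (2 libraries) carried the NUP98-HOXD13 transgene, expressed from the Vav promoter in blood cells. The NHD13/MSI2 donors (4 libraries) carried that transgene as well as KH2-Col1A1-tet-on-MSI2 and ROSA26-rtTA, which produce Musashi 2 when doxycycline is given. All libraries were labelled C57BL/6, 4 months and LSK, and donors could be of either sex. The descriptions call control replicate 1 Bulk and control replicates 2 and 3 MPP_HSC, without saying what differed. The labels do not say whether the libraries of a group came from separate mice or donors, so that every p-value below measures the spread between these libraries only.

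NUP98-HOXD13 joins a part of the nuclear pore protein NUP98 to the DNA-binding homeodomain of HOXD13 and occurs in human myelodysplastic syndrome and acute myeloid leukaemia. Hox proteins bind DNA together with partners of the TALE family (PBX, MEIS and PKNOX proteins), and genes of the Hoxa cluster are kept active in blood stem cells and silenced as cells mature. Musashi 2 is an RNA-binding protein that alters the translation of its target transcripts and is abundant in blood stem cells.

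Library totals ranged from 19247514 to 23020739 counts. Hoxd13, whose homeodomain is part of the fusion, had 0 counts in each control library and was at 0.779 to 0.836 CPM in NHD13 and 0.631 to 1.097 CPM in NHD13/MSI2. The mouse Msi2 gene went against the third label: it was at 238, 335 and 289 CPM in control, 148 and 116 CPM in NHD13 and 85.2, 75.02, 80.3 and 189.5 CPM in NHD13/MSI2. How many reads of the transgene were counted in this row is not known, and every direction given for the libraries labelled NHD13/MSI2 rests on that label. Control replicates 1 and 3 had 949 and 941 CPM of Xist and the other 7 libraries 2.47 CPM or less, so that the sex of the donor cells differed within the controls. Replicate 4 of the libraries labelled NHD13/MSI2 stood apart. Its normalization factor by the trimmed mean of M-values (TMM) was 0.785 where the other 8 libraries were between 0.969 and 1.09, which raises its levels by 0.35 on the log2 scale over plain CPM. It was the lowest of the 4 labelled libraries for 49 of the 93 members, against 24, 14 and 6 for replicates 1 to 3. Among genes that define the sorted fraction, Kit was at 1895 to 2409 CPM in control and 884 to 1301 CPM in the libraries labelled NHD13/MSI2, and Ly6a (Sca1) at 86.1 to 95.3 and 77.4 to 363 CPM.

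Not all members were silent in the control cells. In 4 members (Lin28b, 4921525O09Rik, Hoxc6 and Plekhh2) all control libraries had 0 counts, which allows up to 0.151 CPM in the smallest control library, and in 8 members no control library had more than 3 counts. At the other end, 24 members had 50 or more counts in every control library, so that these genes were raised from a measured level and not turned on from none. Examples were Mecom, Cdk19, Fbp1, F13a1 and Padi2. Summed over the 93 members, the level was 597, 534 and 524 CPM in the control libraries, 6994 and 7700 CPM in the NHD13 libraries and 16390, 16490, 18690 and 15230 CPM in the libraries labelled NHD13/MSI2. F13a1 by itself made up 33.1 to 40.3% of the last 4 sums. Without it the sums were 500 to 554 CPM in control, 4571 and 4598 CPM in NHD13 and 9321 to 11150 CPM in the libraries labelled NHD13/MSI2. Because these are bulk libraries, fewer cells of a type and less RNA per cell cannot be told apart.

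**Figure D1:**
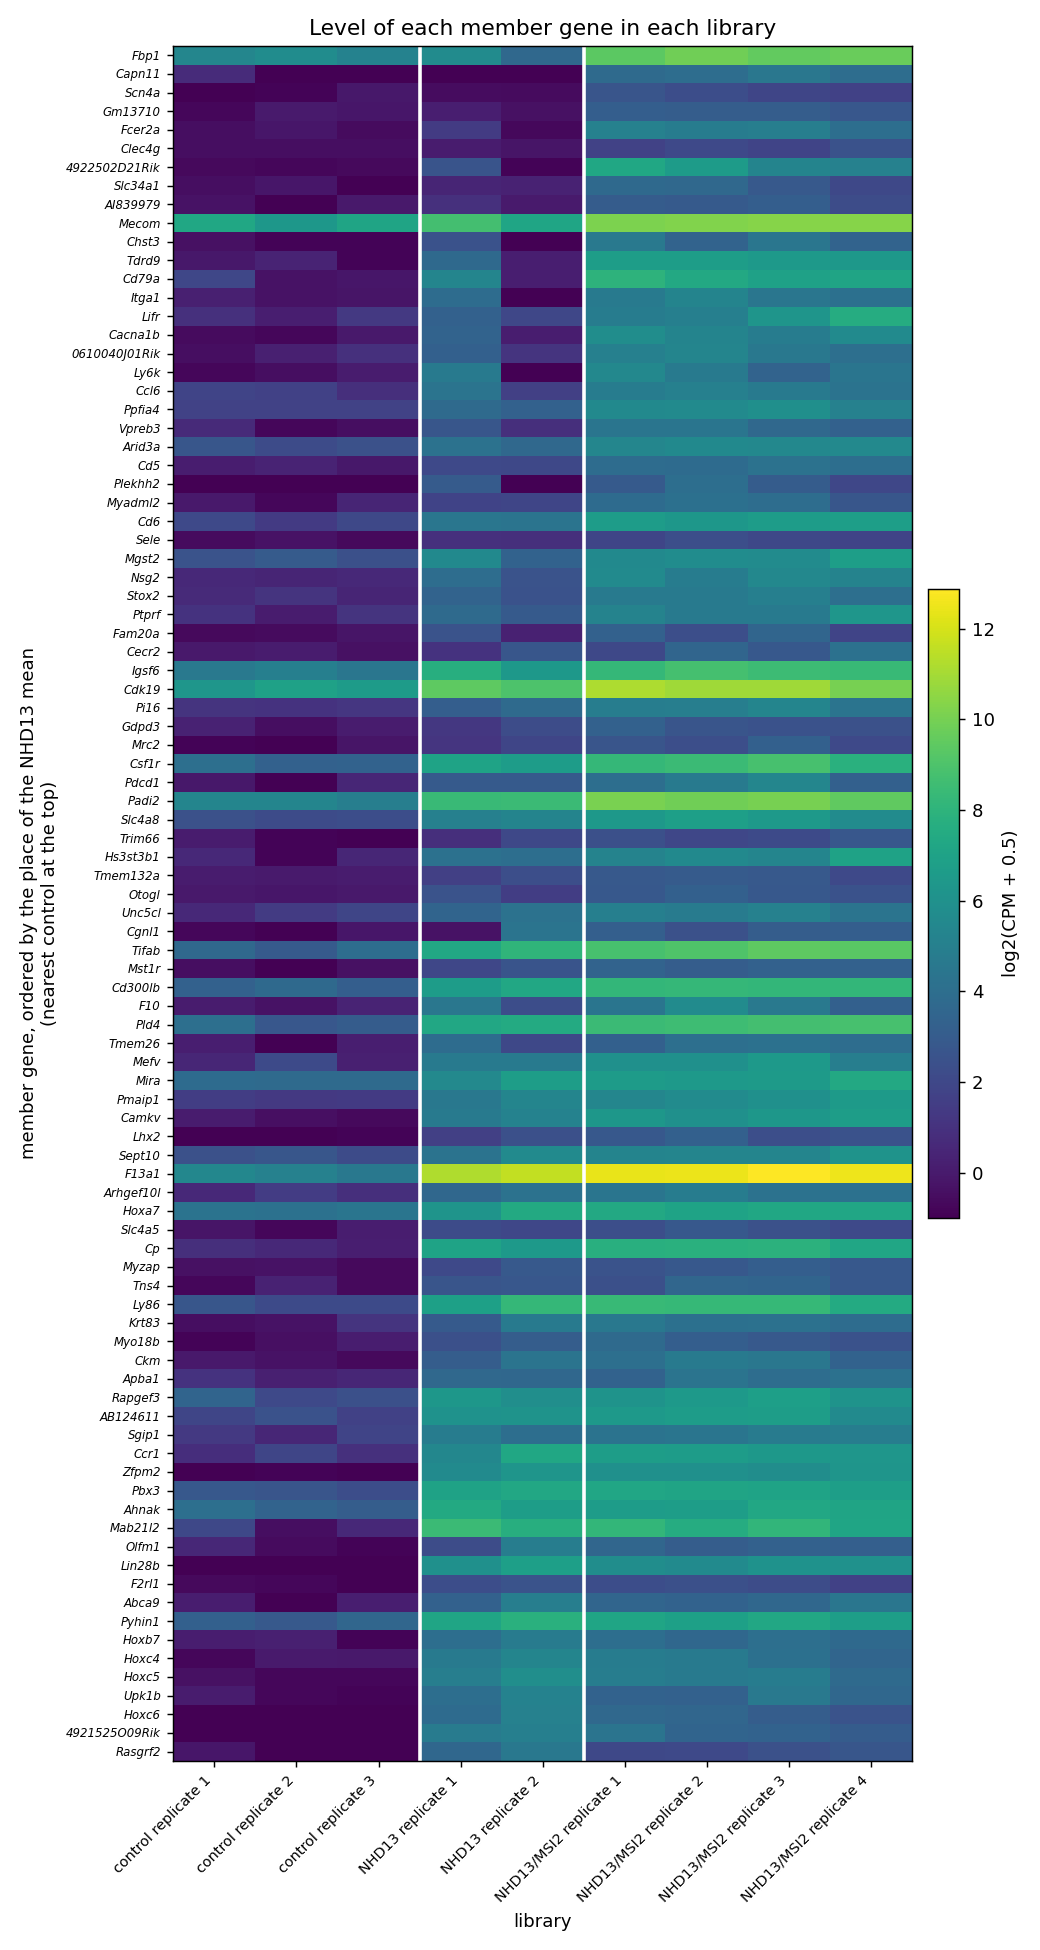
Level of 92 of the 93 members (rows, italic) in the 9 libraries (columns), as log2(CPM + 0.5), from the darkest shade at the lowest level to yellow at the highest; white lines part control, NHD13 and NHD13/MSI2. Rows run from the gene whose NHD13 mean lay nearest to control or below it (Fbp1, top) to the gene whose NHD13 mean lay highest above NHD13/MSI2 (Rasgrf2, bottom), and F13a1 is the brightest row.

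The NHD13 libraries took no part in the choice and were placed between the 2 groups that made it. In 78 of 93 members both NHD13 libraries lay above the highest control library, where 18.0% of the 13355 tested genes did so. In 48 members both lay below the lowest library labelled NHD13/MSI2, against 6.81% of tested genes, and in 37 they lay wholly between the 2 groups. In 4 members (Rasgrf2, 4921525O09Rik, Hoxc6 and Hoxc5) both NHD13 libraries lay above all the libraries labelled NHD13/MSI2, and in 3 (Fbp1, Capn11 and Scn4a) both lay at or below the highest control library. These counts share the control or the labelled NHD13/MSI2 libraries with the choice, which fixes a part of them, and they support nothing by themselves. The rule itself held control and the labelled NHD13/MSI2 libraries apart. For the counts of 37, 4 and 3 no share over all tested genes is given.

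A place was computed for each member on the log2(CPM + 0.5) scale, 0 being the control mean and 1 the mean of the libraries labelled NHD13/MSI2. The median place of NHD13 was 0.728, from −0.177 for Fbp1 to 1.59 for Rasgrf2. With replicate 1 by itself it was 0.711 and with replicate 2 by itself 0.811. The NHD13 mean was nearer to NHD13/MSI2 in 70 members and nearer to control in 23. The NHD13 libraries were far from uniform: they differed more than 3-fold, or held a 0, in 24 members, with replicate 1 the higher in 46 and replicate 2 in 46. The 4 libraries labelled NHD13/MSI2 had a median highest-to-lowest ratio of 1.91 and a ratio over 3 in 11 members. The rule asked for a high value in each of these 4 libraries and set no demand on NHD13. That fixes a part of the closeness of the labelled libraries, so the spreads of the 2 groups cannot be compared.

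**Figure D2:**
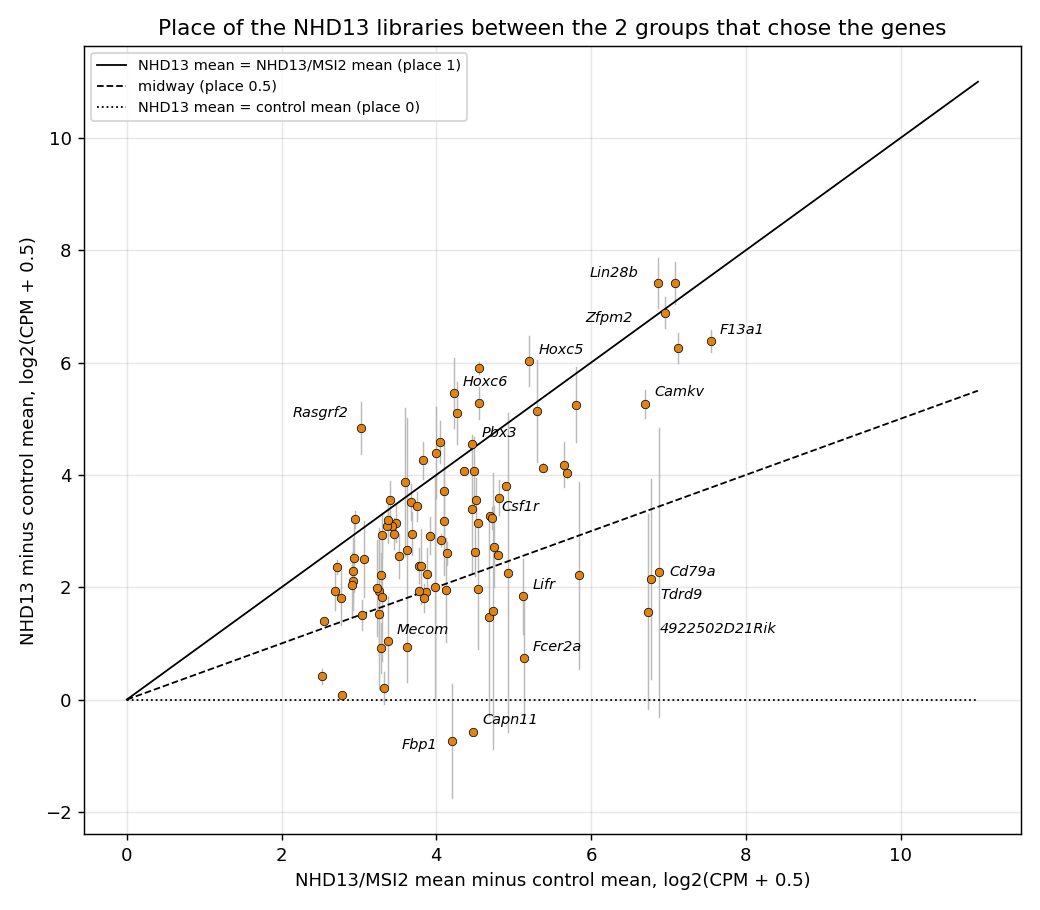
Each point is a member; the x axis gives the mean of the 4 libraries labelled NHD13/MSI2 minus the mean of the 3 control libraries and the y axis the NHD13 mean minus the control mean, both on the log2(CPM + 0.5) scale, with a grey line joining the 2 NHD13 libraries. Most points lie between the dashed line (place 0.5) and the solid line (place 1), as the median place of 0.728 describes; Fbp1 and Capn11 lie at or under the control level, and the longest grey lines belong to members such as Cd79a whose NHD13 libraries differed.

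The counts were also fitted with edgeR's quasi-likelihood test across all 9 libraries and 13355 genes, with p-values adjusted over all of them by the Benjamini-Hochberg procedure and a threshold of 0.01. For NHD13/MSI2 over control, the contrast of the choice, 89 of 93 members were past the threshold in the higher direction and 4.49% of tested genes were, which describes the choice. For NHD13 over control, 49 members were higher and 0 lower, where 0.824% of tested genes were higher. At an unadjusted p under 0.05, 86 were higher and 0 lower. The median log2 fold change was 3.81 over the members and 0.02 over all tested genes, and the members' median was the same with the 4 genes at 0 in control set to their bound of 3 counts. For NHD13/MSI2 over NHD13, 13 members were higher, where 0.584% of tested genes were higher, and 0 members were lower, where 2.58% of tested genes were. At an unadjusted p under 0.05, 46 were higher and 3 lower, and DESeq2 called 35 higher. The median log2 fold change was 1.35 over the members and −0.03 over all tested genes, and 79 of 93 members had a positive value. Both comparisons share libraries with the choice, and their counts support nothing beyond it. For the comparisons with control, no share of tested genes called lower is given here or below. The counts at an unadjusted p, by DESeq2 and by sign also have no share over all tested genes beside them. They describe the members only.

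The 13 members past the threshold over NHD13 were Fbp1, Fcer2a, Gm13710, Cd6, Cd5, Ppfia4, Cdk19, Arid3a, Csf1r, Padi2, Pi16, Slc4a8 and Cd300lb. The number rests on few libraries. It was 5, 5 and 4 without replicates 1, 2 or 3 labelled NHD13/MSI2, 7, 6 and 5 without control replicates 1, 2 or 3, and 6 without NHD13 replicate 2. Without NHD13 replicate 1 it was 10, of which 3 were among the 13. Fbp1 and Ppfia4 stayed past the threshold with any 1 library left out, Cd6 and Padi2 missed it only without NHD13 replicate 1, and each of the others missed it in 5 or more of these fits. For NHD13 over control the count of 49 was 29 without control replicate 1 and 26 without control replicate 3. The fitted folds of these 13 members are drawn below with those of NHD13 over control.

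**Figure D3:**
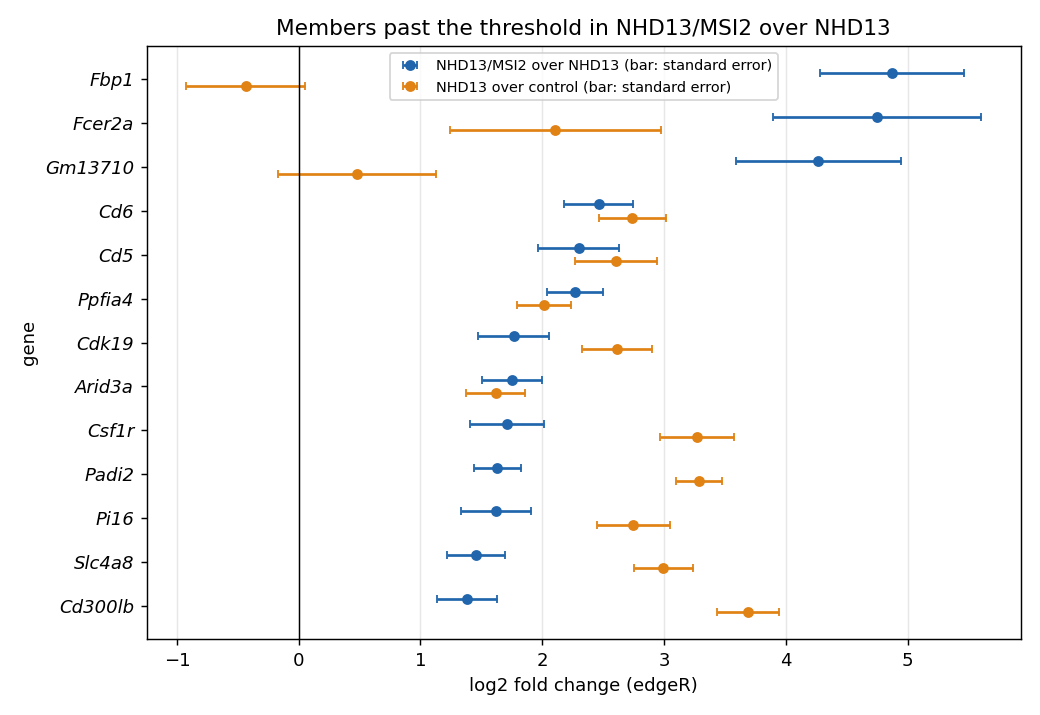
Log2 fold change (x axis) with its standard error for the 13 members past the threshold in NHD13/MSI2 over NHD13 (blue), beside the value of the same gene in NHD13 over control (orange). Fbp1 and Gm13710 have orange values near 0, while Cd300lb, Padi2 and Csf1r have larger orange than blue values; the comparisons share the NHD13 libraries.

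Of 39 Hox genes in the table, 5 were members: Hoxa7, Hoxb7, Hoxc4, Hoxc5 and Hoxc6. Hoxa7 was at 19.3, 17.4 and 20.8 CPM in control, 73.1 and 172 CPM in NHD13 and 168, 132, 152 and 149.5 CPM in the libraries labelled NHD13/MSI2. It was thus well above 0 in control cells, and NHD13 replicate 2 was as high as the labelled libraries. Hoxb7 was at 0.568, 0.655 and 0.0434 CPM in control, 15.7 and 26.6 CPM in NHD13 and 15.5, 11.9, 16.1 and 12.9 CPM in the labelled libraries. Its NHD13 values lay within or above the labelled range, and the log2 fold change of NHD13 over control was 5.66 ± 0.65 (SE, adjusted p = 0.00196), which missed the threshold without control replicate 1.

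The Hoxc members lie side by side on the plus strand of chromosome 15: Hoxc4 lies 1.504 kb from Hoxc5, whose annotated span (GENCODE M21, GRCm38) overlaps Hoxc6, Hoxc8, Hoxc9 and Hoxc10 on the same strand, so that the division of reads among these genes is uncertain. Hoxc4 was at 0.0874, 0.504 and 0.478 CPM in control, 26.03 and 38.9 CPM in NHD13 and 27.4, 25.7, 17.03 and 11.1 CPM in the libraries labelled NHD13/MSI2. Hoxc5 was at 0.262, 0.101 and 0.0869 CPM in control, 30.3 and 57.1 CPM in NHD13 and 29.6, 25.4, 28.4 and 13.6 CPM in the labelled libraries. Hoxc6 had 0 counts in all control libraries, and was at 13.8 and 33.3 CPM in NHD13 and 12.6, 11.4, 7.94 and 5.298 CPM in the labelled libraries, at least 35.1 times the control floor of 3 counts in its lowest labelled library. In all 3 genes NHD13 replicate 2 was the highest library of the 9 and replicate 4 the lowest of those labelled NHD13/MSI2. None of the 3 differed past the threshold between NHD13/MSI2 and NHD13, the log2 fold changes being −0.51 ± 0.43 (SE, adjusted p = 0.558) for Hoxc4, −0.68 ± 0.34 (SE, adjusted p = 0.289) for Hoxc5 and −1.16 ± 0.43 (SE, adjusted p = 0.165) for Hoxc6.

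Among the 22 tested Hox genes, 7 were higher in NHD13 over control (Hoxa5, Hoxa7, Hoxb7, Hoxc4, Hoxc5, Hoxc6 and Hoxc8) and 0 lower. Of all tested genes 0.824% were higher there. The 7 include the 5 members, whose choice used the same control libraries. In NHD13/MSI2 over NHD13, 0 were higher and Hoxc8 was lower, where 0.584% of all tested genes were higher and 2.58% lower. Hoxc8, which the annotated span of Hoxc5 overlaps, was at 0, 0.0504 and 0.0869 CPM in control, 14.1 and 68.5 CPM in NHD13 and 0.501, 0.582, 1.80 and 0.5603 CPM in the libraries labelled NHD13/MSI2. In NHD13/MSI2 over control, 10 Hox genes were higher and 2 (Hoxa10 and Hoxb2) lower, so that Hox genes went both ways. The 10 include the 5 members, whose calls describe the choice, and 4.49% of all tested genes were higher. Hoxa9, a leukaemia-associated Hox gene outside the set, was at 77.3 to 113 CPM in control and 162 to 183 CPM in the labelled libraries.

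Pbx3, a TALE partner of Hox proteins, was the member of that family of 9. It was at 6.598, 5.89 and 4.34 CPM in control, 127 and 157 CPM in NHD13 and 151, 139.6, 133 and 111 CPM in the libraries labelled NHD13/MSI2. The NHD13 and labelled values overlapped, and the log2 fold change was 4.67 ± 0.21 (SE, adjusted p = 1.41e-05) for NHD13 over control and 0.11 ± 0.19 (SE, adjusted p = 0.8) for NHD13/MSI2 over NHD13. Meis1, another TALE gene, went the other way: it was at 748 to 1084 CPM in control, 166 to 559 CPM in NHD13 and 4.04 to 9.17 CPM in the libraries labelled NHD13/MSI2, and it was past the threshold as lower in NHD13/MSI2 over NHD13. Mira, a non-coding RNA named for the Hoxa cluster on chromosome 6, was at 14.1, 13.7 and 13.4 CPM in control, 45.7 and 104 CPM in NHD13 and 98.98, 86.1, 94.9 and 164 CPM in the labelled libraries, with replicate 4 the highest.

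**Figure D4:**
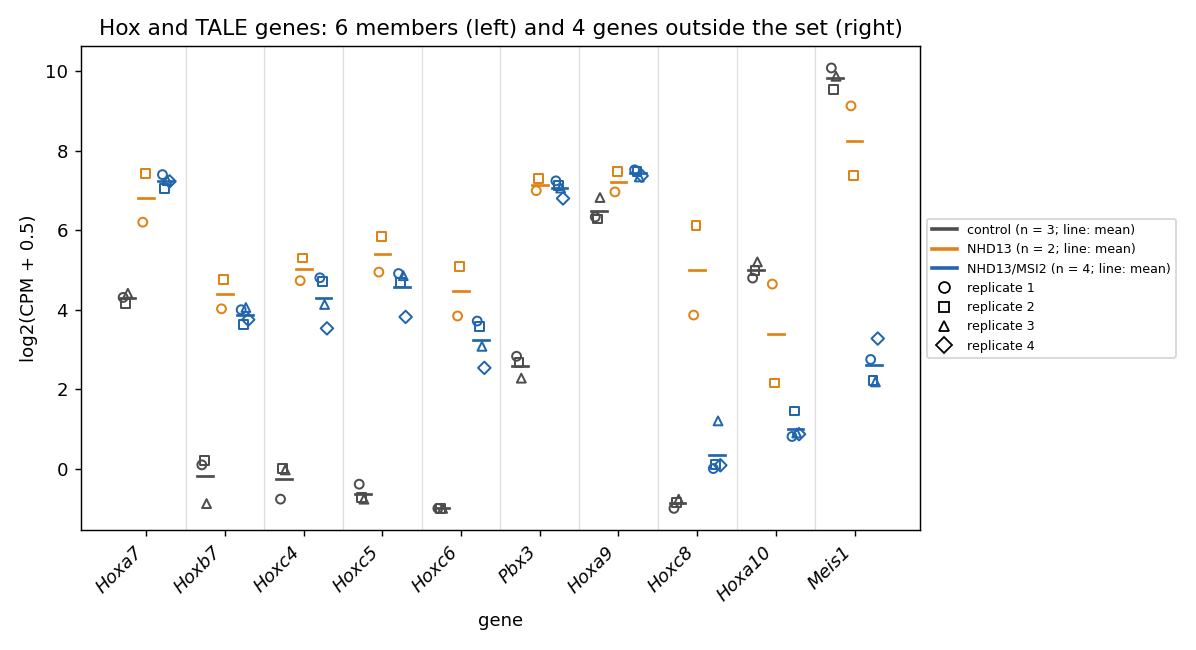
Level of 6 members (Hoxa7, Hoxb7, Hoxc4, Hoxc5, Hoxc6 and Pbx3) and 4 related genes outside the set, as log2(CPM + 0.5) on the y axis; symbols are libraries, colours are groups and short lines are group means. The 6 members are above control (grey) in NHD13 (orange) and NHD13/MSI2 (blue), with both NHD13 libraries above all those labelled NHD13/MSI2 in Hoxc5 and Hoxc6, whereas Hoxc8 is high in NHD13 alone of the 3 groups and Meis1 is lowest in NHD13/MSI2.

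For 69 members the set of RefSeq promoter windows used (GRCm38.p6) held 250 bases before to 50 after a transcript start, 81 windows in all. The other 24 members were not matched to a window of that set, which does not show that RefSeq lacks them. The windows were poor in CpG, the pair of bases at which mammalian DNA is methylated. The median number of CpG was 7 per window in the members and 20 in the 13282 windows of all tested genes, and 31 member windows (38.3%) had 5 or fewer, against 14.7% of the tested. The ETS letters CCGGAAGT, which mark CpG-rich promoters of widely expressed genes, were in 0 of 81 member windows and 7.79% of the tested windows. The TATA box letters TATAAA were in 16.05% of the members' and 7.49% of the tested. GAGGAAGT, letters bound by the myeloid and B cell factor PU.1, was in 5 member windows (6.17%), those of Fbp1, Hoxc4, Cd5, F13a1 and Pld4, against 3.25% of the tested. Letters of the erythroid GATA factors, AGATAA, were in 3.70% of the members' and 6.72% of the tested, RUNX (TGTGGT) in 13.6% and 13.2%, MYB (CAACTG) in 11.1% and 10.8%, and MEIS (TGACAG) in 19.8% and 17.1%. HOX-PBX (TGATTTAT) was in 0 and 0.392%, and CRE (TGACGTCA) in 0 and 2.92%. CEBP (TTGCNNAA) was in 6.17% and 8.74%, AP-1 (TGANTCA) in 9.88% and 5.25%, and the E-box (CANNTG) in 76.5% and 64.6%. Each motif was searched on both strands. The PU.1 and ETS letters share the core GGAAGT. These shares are descriptions, since the members differ from other genes in level and tissue pattern as well.

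Shown next, 5′ to 3′ on the strand of the gene, are the 250 bases before the start of 3 members: a metabolic gene, a Hox gene and a lymphocyte gene. They were chosen because these bases hold the PU.1 letters, which most member windows lack, so they are not typical of the members. They hold 5, 8 and 3 CpG, and capitals mark the PU.1 letters, which in Hoxc4 stand on the opposite strand and so read ACTTCCTC. The windows are chr13:62888283-62888532 (minus strand), chr15:103034145-103034394 (plus strand) and chr19:10738975-10739224 (minus strand) of GRCm38.p6, from RefSeq, and the letters begin 65, 181 and 53 bases before the start.
Fbp1: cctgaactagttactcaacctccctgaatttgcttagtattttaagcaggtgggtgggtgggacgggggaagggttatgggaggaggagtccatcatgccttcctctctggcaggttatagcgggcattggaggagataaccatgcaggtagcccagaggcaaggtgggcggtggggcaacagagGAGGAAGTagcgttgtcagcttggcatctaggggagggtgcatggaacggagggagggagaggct
Hoxc4: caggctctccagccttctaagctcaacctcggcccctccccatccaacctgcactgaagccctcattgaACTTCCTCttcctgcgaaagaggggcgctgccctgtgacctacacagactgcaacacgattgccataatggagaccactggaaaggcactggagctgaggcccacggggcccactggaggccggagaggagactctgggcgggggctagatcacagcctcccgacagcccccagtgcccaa
Cd5: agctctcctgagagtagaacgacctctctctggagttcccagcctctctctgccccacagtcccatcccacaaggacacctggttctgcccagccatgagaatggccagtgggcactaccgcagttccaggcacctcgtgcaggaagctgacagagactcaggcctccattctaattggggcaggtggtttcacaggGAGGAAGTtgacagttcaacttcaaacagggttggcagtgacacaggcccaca

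Further members regulate transcription or RNA. Zfpm2, a cofactor of GATA factors, had 0, 1 and 0 counts in the control libraries. It was at 49.99 and 73.9 CPM in NHD13 and 61.6, 62.2, 56.4 and 75.8 CPM in the libraries labelled NHD13/MSI2, and these groups overlapped. Lin28b, which blocks maturation of let-7 microRNAs and is a mark of fetal blood progenitors, had 0 counts in all control libraries. It was at 62.6 and 116 CPM in NHD13 and 54.5, 49.2, 65.8 and 63.8 CPM in the labelled libraries, whose lowest was at least 326 times the control floor. NHD13 replicate 2 was the highest library, and for Lin28b the log2 fold change of NHD13/MSI2 over NHD13 was −0.40 ± 0.29 (SE, adjusted p = 0.507). Lhx2, a LIM homeobox factor, had a single count in control, 2.56 and 4.68 CPM in NHD13 and 6.46, 9.17, 4.52 and 5.09 CPM in the labelled libraries. Mab21l2, a developmental gene that overlaps Lrba on the opposite strand, was at 3.45, 0.202 and 0.999 CPM in control, 357 and 210.3 CPM in NHD13 and 287, 193, 284 and 143 CPM in the labelled libraries.

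Mecom, which encodes the stem cell transcription factor EVI1, was nearer to control in NHD13. It was at 154, 81.6 and 136 CPM in control, 425 and 143 CPM in NHD13 and 1150, 1205, 1297 and 1334 CPM in the libraries labelled NHD13/MSI2. NHD13 replicate 2 fell inside the control range while the labelled libraries were close to each other. Its log2 fold change was 1.21 ± 0.41 (SE, adjusted p = 0.205) for NHD13 over control and 2.36 ± 0.45 (SE, adjusted p = 0.0124) for NHD13/MSI2 over NHD13, neither past the threshold. Mecom was the only member among 18 listed markers of haematopoietic stem cells. Of the other 17, 11 were lower in NHD13/MSI2 over NHD13 and 0 higher, where 2.58% and 0.584% of all tested genes were. Cdk19, a kinase of the Mediator complex that links transcription factors to RNA polymerase, was at 77.9, 121 and 96.5 CPM in control, 682 and 511 CPM in NHD13 and 2350, 1888, 1884 and 1036 CPM in the labelled libraries. The 3 groups did not overlap, and the log2 fold change over NHD13 was 1.76 ± 0.29 (SE, adjusted p = 0.00717). Arid3a, a DNA-binding factor of B cell and fetal blood development, was at 6.12, 4.08 and 4.95 CPM in control, 18.2 and 12.5 CPM in NHD13 and 41.5, 47.1, 44.6 and 45.03 CPM in the labelled libraries, again with no overlap, and its log2 fold change over NHD13 was 1.75 ± 0.25 (SE, adjusted p = 0.00384). Cecr2, a chromatin remodelling factor, was at 0.261 to 0.554 CPM in control, 1.52 to 6.13 CPM in NHD13 and 3.46 to 17.4 CPM in the labelled libraries, and Stox2 at 0.869 to 1.66 CPM in control, 5.195 to 10.3 CPM in NHD13 and 16.6 to 31.6 CPM in the labelled libraries.

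Genes known from monocytes and macrophages included the member with the highest level. F13a1, the A chain of coagulation factor XIII and a marker of monocytes, was at 42.8, 34.3 and 22.7 CPM in control, 2396 and 3129 CPM in NHD13 and 5432, 5783, 7541 and 5905 CPM in the libraries labelled NHD13/MSI2. At 915 CPM per kb of exon in the labelled libraries it led the members on the per-length scale too, ahead of Fbp1 (469), Cdk19 (306) and Padi2 (188). The groups did not overlap, yet the log2 fold change of NHD13/MSI2 over NHD13, 1.36 ± 0.30 (SE, adjusted p = 0.0226), was not past the threshold, while that of NHD13 over control was 6.39 ± 0.34 (SE, adjusted p = 3.12e-05).

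Csf1r encodes the receptor for macrophage colony-stimulating factor. It was at 16.6, 9.57 and 9.99 CPM in control, 130.4 and 99.9 CPM in NHD13 and 299.5, 349.5, 459 and 220.4 CPM in the libraries labelled NHD13/MSI2. Each group lay above the one before it, and the log2 fold change was 3.27 ± 0.30 (SE, adjusted p = 0.000711) for NHD13 over control and 1.71 ± 0.30 (SE, adjusted p = 0.00928) for NHD13/MSI2 over NHD13. Ly86 (MD-1), the partner of the surface receptor CD180, was at 5.99, 3.83 and 3.82 CPM in control, 118 and 299.8 CPM in NHD13 and 332, 315, 312 and 177 CPM in the labelled libraries. NHD13 replicate 2 lay inside the labelled range, whose lowest value was that of replicate 4. Both Csf1r and Ly86, with F13a1, belong to a list of 16 GMP and monocyte markers. On this list 4 genes were higher and 0 lower in NHD13 over control, where 0.824% of all tested genes were higher. The 4 include the members Csf1r, Ly86 and F13a1, whose choice used the same control libraries. In NHD13/MSI2 over NHD13, Csf1r and Csf3r were higher, 0 were lower and 14 were not called. Of all tested genes 0.584% were higher and 2.58% lower there. Csf3r, not a member, did not rise in steps: it was at 197.5 to 215 CPM in control, 104 and 116 CPM in NHD13 and 229 to 274 CPM in the labelled libraries. It was not called in NHD13/MSI2 over control.

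In other myeloid members the groups also lay in steps from control over NHD13 to NHD13/MSI2. Padi2, which converts arginine in proteins to citrulline, was at 38.6, 39.6 and 29.7 CPM in control, 345 and 351 CPM in NHD13 and 1074, 933, 1043 and 725 CPM in the libraries labelled NHD13/MSI2. Cd300lb, an activating receptor of myeloid cells, was at 9.31, 12.8 and 8.47 CPM in control, 102 and 159 CPM in NHD13 and 288, 308, 292 and 290.0 CPM in the labelled libraries, the labelled libraries being within 1.07-fold of each other. In both genes the 3 groups were apart, and the log2 fold changes over NHD13 were 1.63 ± 0.19 (SE, adjusted p = 0.00172) for Padi2 and 1.38 ± 0.25 (SE, adjusted p = 0.0096) for Cd300lb. Tifab, an inhibitor of TRAF6 signalling, was at 12.2, 7.002 and 15.3 CPM in control, 157 and 274 CPM in NHD13 and 463, 539, 692 and 632 CPM in the labelled libraries. Pld4, a nuclease of endosomes, was at 16.1, 6.25 and 7.64 CPM in control, 159.7 and 178 CPM in NHD13 and 355, 377, 429 and 459 CPM in the labelled libraries. Igsf6 was at 23.9, 31.8 and 21.1 CPM in control, 210.1 and 83.6 CPM in NHD13 and 303, 445, 371 and 327 CPM in the labelled libraries. In these 3 genes too the groups did not overlap, but the differences from NHD13 missed the threshold, with an adjusted p from 0.0249 for Tifab to 0.0399 for Pld4, whereas those of NHD13 over control passed it. In Igsf6 that call was lost without control replicate 1, 2 or 3, without NHD13 replicate 1 and without replicate 2 or 3 labelled NHD13/MSI2, and also with only the 2 groups in the fit. Cp, ceruloplasmin, a copper-carrying ferroxidase whose span overlaps Hps3, was at 1.35, 1.01 and 0.608 CPM in control, 134 and 92.2 CPM in NHD13 and 217, 224, 239 and 146 CPM in the labelled libraries. Its groups were apart as well, with a log2 fold change of 6.84 ± 0.32 (SE, adjusted p = 1.41e-05) for NHD13 over control and 1.06 ± 0.26 (SE, adjusted p = 0.0357) over NHD13.

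Among further members, not all of them known from myeloid cells, some had overlapping groups and some did not. Ccr1, a chemokine receptor of monocytes, was at 1.27, 3.27 and 1.39 CPM in control, 43.2 and 153 CPM in NHD13 and 104, 101, 83.1 and 79.3 CPM in the labelled libraries. Pyhin1 (Ifi209 in current naming), of a family of interferon-inducible genes, was at 9.002, 6.75 and 11.3 CPM in control, 141 and 225 CPM in NHD13 and 142, 119, 161 and 110.4 CPM in the labelled libraries. Ccr1 and Pyhin1 thus had an NHD13 library above every labelled library. AB124611, a gene known by a sequence name, was at 3.23, 5.09 and 2.69 CPM in control, 65.8 and 68.7 CPM in NHD13 and 90.5, 99.6, 106 and 48.6 CPM in the labelled libraries. Mefv, which encodes the inflammasome protein pyrin, was at 0.652 to 3.78 CPM in control, 26.2 to 26.3 CPM in NHD13 and 30.1 to 87.4 CPM in the labelled libraries. F10 (coagulation factor X) was at 0.302 to 0.782 CPM in control, 4.42 to 22.6 CPM in NHD13 and 9.17 to 50.5 CPM in the labelled libraries. Ccl6, a chemokine, was at 3.06, 2.77 and 1.303 CPM in control, 19.4 and 2.65 CPM in NHD13 and 28.4, 32.7, 25.1 and 19.1 CPM in the labelled libraries, with NHD13 replicate 2 inside the control range. Mgst2 was at 4.82 to 7.36 CPM in control, 9.61 to 48.3 CPM in NHD13 and 48.3 to 108 CPM in the labelled libraries. Clec4g, a C-type lectin gene 12.9 kb from Fcer2a, was low throughout, at 0.202 to 0.218 CPM in control, 0.364 to 0.541 CPM in NHD13 and 2.85 to 5.04 CPM in the labelled libraries. In Mefv, Mgst2 and Clec4g the 3 groups were apart, in Mgst2 by a narrow margin.

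Of the members, 6 are known for lymphocytes. Cd79a, a signalling chain of the B cell receptor, was at 3.32, 0.302 and 0.391 CPM in control, 39.6 and 0.624 CPM in NHD13 and 253, 167, 121 and 139 CPM in the libraries labelled NHD13/MSI2. NHD13 replicate 1 lay between the groups and replicate 2 within the control range, and neither comparison with NHD13 passed the threshold. Fcer2a (CD23), the low-affinity IgE receptor, was at 0.218, 0.403 and 0.174 CPM in control, 2.17 and 0.104 CPM in NHD13 and 33.8, 28.2, 30.4 and 15.9 CPM in the labelled libraries, so that NHD13 lay nearer to control, with a log2 fold change of 4.75 ± 0.85 (SE, adjusted p = 0.00972) over NHD13. Vpreb3, of the pre-B cell receptor, was at 1.09, 0.101 and 0.217 CPM in control, 5.95 and 1.299 CPM in NHD13 and 20.2, 20.7, 12.6 and 9.37 CPM in the labelled libraries. Cd5 and Cd6, neighbouring genes on chromosome 19 that encode scavenger receptors of T cells, shared a pattern. Cd5 was at 0.568, 0.806 and 0.434 CPM in control, 3.69 and 3.58 CPM in NHD13 and 14.4, 13.8, 18.4 and 15.4 CPM in the labelled libraries. Cd6 was at 3.76, 2.06 and 3.52 CPM in control, 21.7 and 19.6 CPM in NHD13 and 99.6, 81.4, 102 and 108 CPM in the labelled libraries. In both the 3 groups were apart, and the log2 fold changes over NHD13 were 2.30 ± 0.33 (SE, adjusted p = 0.00412) for Cd5 and 2.46 ± 0.28 (SE, adjusted p = 0.00158) for Cd6. Pdcd1 (PD-1), an inhibitory receptor, was at 0.437, 0 and 0.912 CPM in control, 7.23 and 7.22 CPM in NHD13 and 15.4, 25.8, 40.4 and 9.22 CPM in the labelled libraries.

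**Figure D5:**
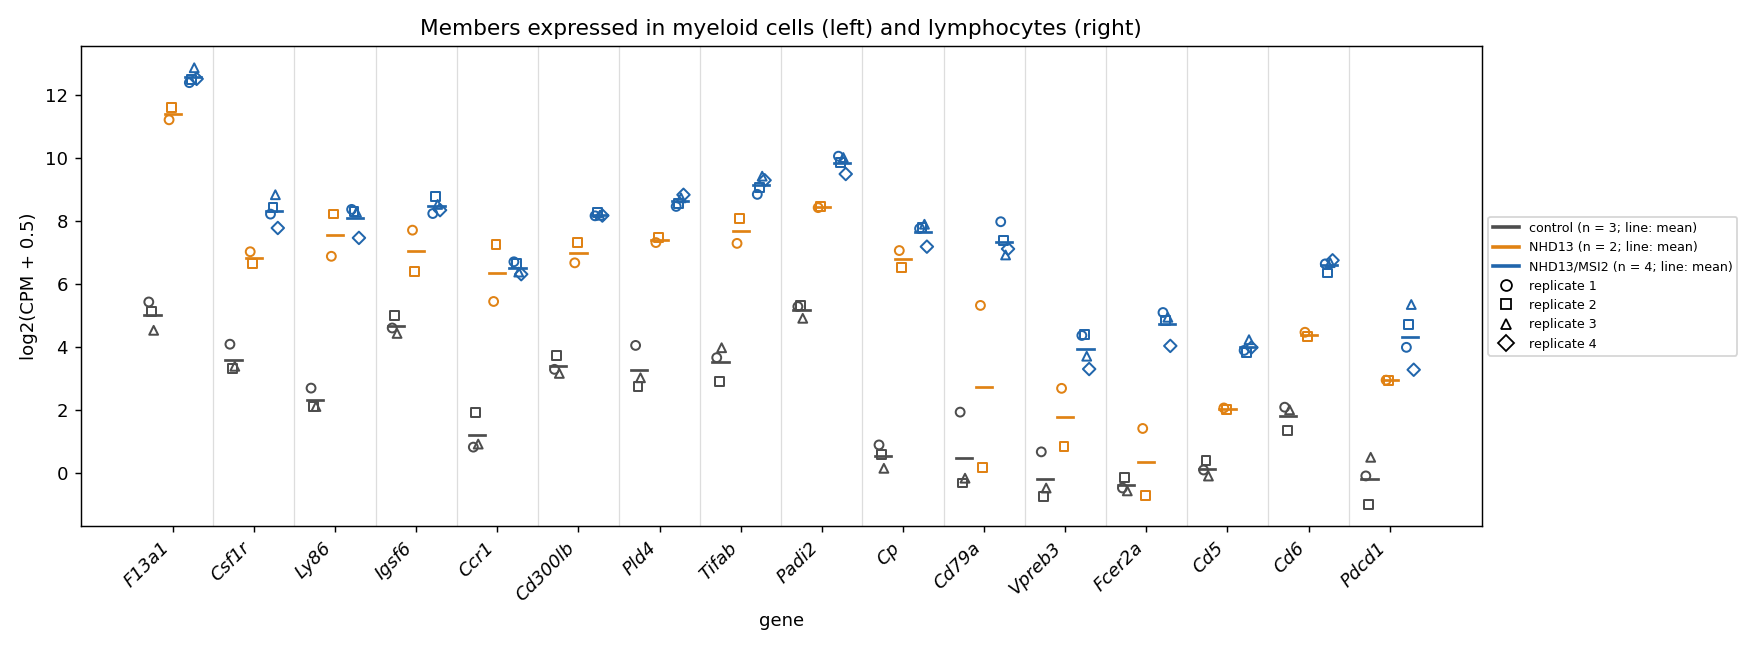
Level of 10 members expressed in myeloid cells and 6 in lymphocytes, as log2(CPM + 0.5) on the y axis, with a symbol for each library, a colour for each group and a short line at each group mean. F13a1, Csf1r, Padi2, Cd5 and Cd6 climb in steps from control (grey) over NHD13 (orange) to NHD13/MSI2 (blue), whereas Cd79a and Fcer2a are near control in NHD13 replicate 2 (orange square).

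The marker lists of other cell types were read beside these members. On the B cell list (11 genes, 2 of them members) the summed level was 53.1 to 73.4 CPM in control, 133 and 159 CPM in NHD13 and 278 to 473 CPM in the libraries labelled NHD13/MSI2. In those 4 libraries Cd79a took 121 to 253 CPM, whereas Ms4a1 was at 0 to 0.902 CPM, with 0 counts in 3 of them, and Ebf1 at 0 to 0.952 CPM. Cd79b, the other signalling chain of the B cell receptor, was at 47.96 to 53.95 CPM in control, 84.3 to 92.2 CPM in NHD13 and 117 to 168 CPM in the labelled libraries, and Pax5 at 0 to 0.131 CPM, 0.624 to 0.689 CPM and 1.78 to 3.74 CPM. On this list 4 genes (Cd79a, Cd79b, Fcer2a and Pax5) were past the threshold as higher in NHD13/MSI2 over control. In NHD13/MSI2 over NHD13 2 (Cd79b and Fcer2a) were, in NHD13 over control 0, and 0 were lower in any of the 3 comparisons. Of all tested genes 4.49%, 0.584% and 0.824% were higher in these comparisons, in that order. Cd79a and Fcer2a are members, so their calls in NHD13/MSI2 over control describe the choice. The T and NK cell list (13 genes, with Cd5 as a member) summed to 46.8 to 58.1 CPM in control, 235 and 432 CPM in NHD13 and 89.6 to 150 CPM in the labelled libraries, where Cd3e was at 0 to 0.679 CPM, with 0 counts in 3 of the 4. Lck was at 38.5 to 47.5 CPM in control, 202 to 206 CPM in NHD13 and 47.1 to 81.2 CPM in the labelled libraries, Klrb1c at 0.957 to 3.02 CPM, 15.3 to 19.8 CPM and 7.23 to 21.1 CPM, and Tcf7 at 0.0869 to 1.18 CPM, 1.403 to 148 CPM and 5.96 to 31.8 CPM. Of 9 tested genes of this list, Cd5 and Klrb1c were higher in NHD13/MSI2 over control and Cd5 and Lck in NHD13 over control. In NHD13/MSI2 over NHD13 Cd5 was higher and Lck lower. Cd5 is a member, so its call in NHD13/MSI2 over control describes the choice. The GMP and monocyte list (16 genes) summed to 460 to 548 CPM, 3391 and 4384 CPM, and 7275 to 9807 CPM, and in the last 4 libraries most of it was F13a1. The macrophage list of 10 genes held no member, and its sums were 33.4 to 52.3 CPM in control, 76.0 and 77.0 CPM in NHD13 and 40.7 to 86.1 CPM in the labelled libraries, which overlap both. The erythroid list, with no member, summed to 2627 to 3003 CPM in control, 373 and 2405 CPM in NHD13 and 13.3 to 70.2 CPM in the labelled libraries, and Car2 by itself was at 2494 to 2813 CPM, 2355 and 358 CPM and 9.87 to 47.3 CPM. The part of cell composition in the members' values was not tested.

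Receptors and the proteins that carry their signals formed a further group. Lifr, the receptor of leukaemia inhibitory factor, varied most among the libraries labelled NHD13/MSI2: it was at 1.398, 0.605 and 1.96 CPM in control, 9.299 and 3.38 CPM in NHD13 and 28.0, 30.96, 74.1 and 195 CPM in those libraries, a 6.96-fold span with replicate 4 the highest. Mst1r, the RON receptor tyrosine kinase, was at 0 to 0.261 CPM in control, 3.395 to 5.66 CPM in NHD13 and 8.05 to 10.3 CPM in the labelled libraries. F2rl1, a protease-activated receptor, was at 0 to 0.131 CPM in control, 4.28 to 5.403 CPM in NHD13 and 2.70 to 4.804 CPM in the labelled libraries. Ptprf, a receptor phosphatase, was at 0.554 to 1.61 CPM in control, 7.17 to 13.4 CPM in NHD13 and 25.3 to 78.2 CPM in the labelled libraries. Rapgef3 (EPAC1), a cAMP-regulated activator of RAP proteins, was at 10.7, 3.73 and 4.74 CPM in control, 81.03 and 56.6 CPM in NHD13 and 70.7, 87.6, 113 and 70.8 CPM in the labelled libraries. Rasgrf2, an activator of RAS, was the member with the highest place, at 0.393, 0 and 0 CPM in control, 12.1 and 23.3 CPM in NHD13 and 3.46, 3.69, 5.004 and 6.16 CPM in the labelled libraries. All 4 labelled libraries were thus below both NHD13 libraries, with a log2 fold change of −1.72 ± 0.74 (SE, adjusted p = 0.214) that missed the threshold. Arhgef10l, a guanine nucleotide exchange factor, was at 1.005 to 2.27 CPM in control, 12.01 to 17.98 CPM in NHD13 and 17.3 to 28.4 CPM in the labelled libraries. Ppfia4, a liprin scaffold protein, was at 2.88, 2.87 and 2.78 CPM in control, 13.4 and 9.35 CPM in NHD13 and 48.04, 50.3, 60.5 and 34.2 CPM in the labelled libraries, the 3 groups being apart, and its log2 fold change over NHD13 was 2.27 ± 0.23 (SE, adjusted p = 0.00107). Pmaip1 (NOXA), a BH3 protein that promotes cell death, was at 2.403, 2.02 and 2.04 CPM in control, 23.1 and 40.1 CPM in NHD13 and 41.2, 52.2, 62.5 and 95.2 CPM in the labelled libraries.

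Among enzymes of metabolism, Fbp1 had the pattern farthest from the rest. Fbp1 encodes fructose-1,6-bisphosphatase, an enzyme of gluconeogenesis. It was at 41.6, 53.4 and 34.6 CPM in control, 51.4 and 12.2 CPM in NHD13 and 676, 931, 751 and 837 CPM in the libraries labelled NHD13/MSI2. NHD13 replicate 1 was within the control range and replicate 2 below it, and the labelled libraries were all far above both. The log2 fold change was −0.44 ± 0.49 (SE, adjusted p = 0.851) for NHD13 over control and 4.87 ± 0.59 (SE, adjusted p = 0.00208) for NHD13/MSI2 over NHD13. Ckm, muscle creatine kinase, was at 0.481, 0.302 and 0.1303 CPM in control, 8.17 and 19.9 CPM in NHD13 and 16.03, 25.1, 21.8 and 9.88 CPM in the labelled libraries. Hs3st3b1, which sulfates heparan sulfate, was at 1.005, 0.0504 and 0.912 CPM in control, 17.9 and 15.6 CPM in NHD13 and 36.7, 46.7, 39.2 and 127 CPM in the labelled libraries, with replicate 4 far above the rest. Chst3, which sulfates chondroitin, was at 0.0434 to 0.262 CPM in control, 0 to 5.21 CPM in NHD13 and 10.04 to 24.2 CPM in the labelled libraries, with 0 counts in NHD13 replicate 2. Gdpd3 was at 0.202 to 0.743 CPM in control, 1.92 to 4.21 CPM in NHD13 and 4.84 to 9.32 CPM in the labelled libraries.

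The members include 7 ion channels and transporters, several of which are best known from nerve, muscle or kidney. Cacna1b, a neuronal calcium channel subunit, was at 0.175, 0.101 and 0.478 CPM in control, 10.3 and 0.572 CPM in NHD13 and 55.5, 37.8, 28.4 and 50.1 CPM in the libraries labelled NHD13/MSI2. Scn4a, the sodium channel of skeletal muscle, was at 0, 0.0504 and 0.434 CPM in control, 0.197 and 0.156 CPM in NHD13 and 5.91, 4.32, 3.204 and 2.70 CPM in the labelled libraries, with NHD13 inside the control range. Slc34a1, a phosphate transporter of the kidney, was at 0 to 0.403 CPM in control, 0.779 to 0.836 CPM in NHD13 and 3.57 to 13.02 CPM in the labelled libraries. Slc4a8, a bicarbonate transporter, was at 5.03, 3.93 and 4.43 CPM in control, 32.5 and 37.8 CPM in NHD13 and 84.2, 113, 92.2 and 51.6 CPM in the labelled libraries. Its 3 groups were apart, with a log2 fold change of 1.45 ± 0.24 (SE, adjusted p = 0.00658) over NHD13. Slc4a5, of the same family, was at 0.101 to 0.565 CPM in control, 3.33 to 4.08 CPM in NHD13 and 3.67 to 6.502 CPM in the labelled libraries, and Abca9 at 0 to 0.608 CPM in control, 9.54 to 30.6 CPM in NHD13 and 9.85 to 21.4 CPM in the labelled libraries.

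Several members are known from other tissues. Camkv, a kinase-like protein of the brain, was at 0.524, 0.252 and 0.1303 CPM in control, 25.04 and 35.4 CPM in NHD13 and 80.1, 63.1, 81.6 and 104 CPM in the libraries labelled NHD13/MSI2, a ratio of 120.3 between the lowest labelled and the highest control library. It lies 15.3 kb from Mst1r. Tdrd9, a helicase of the germline piRNA pathway, was at 0.437, 0.806 and 0.0434 CPM in control, 12.8 and 0.624 CPM in NHD13 and 105, 105, 90.1 and 83.2 CPM in the labelled libraries. 4922502D21Rik, an unnamed gene model, was at 0.131, 0.101 and 0.1303 CPM in control, 5.61 and 0.05195 CPM in NHD13 and 151, 98.3, 37.2 and 33.9 CPM in the labelled libraries. In both of these genes NHD13 replicate 1 was above all controls, while replicate 2 was at or below their highest value. Capn11, a calpain of the testis, had 0 counts in both NHD13 libraries and in 2 control libraries, and was at 13.3, 14.9, 21.9 and 15.3 CPM in the labelled libraries. 4921525O09Rik, at 0 in control, was at 27.4 and 31.7 CPM in NHD13 and 19.8, 10.4, 9.92 and 7.59 CPM in the labelled libraries. Upk1b, a uroplakin of the bladder lining, was at 0.0434 to 0.524 CPM in control, 15.8 to 34.6 CPM in NHD13 and 9.61 to 23.6 CPM in the labelled libraries, and Krt83, a hair keratin, at 0.218 to 1.61 CPM in control, 7.18 to 25.04 CPM in NHD13 and 14.5 to 23.4 CPM in the labelled libraries. Ahnak, a large scaffold protein, was at 16.5, 10.3 and 8.17 CPM in control, 174 and 106 CPM in NHD13 and 101, 106, 159 and 136 CPM in the labelled libraries, and Sgip1 at 0.907 to 3.13 CPM in control, 15.5 to 28.1 CPM in NHD13 and 19.03 to 29.3 CPM in the labelled libraries. Each had an NHD13 library inside or above the labelled range.

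Adhesion genes included Itga1, an integrin subunit that overlaps Pelo, at 0.655, 0.302 and 0.347 CPM in control, 14.7 and 0 CPM in NHD13 and 24.8, 37.6, 21.6 and 16.7 CPM in the libraries labelled NHD13/MSI2. Sele (E-selectin) was at 0.1303 to 0.302 CPM in control, 1.299 to 1.38 CPM in NHD13 and 3.16 to 4.51 CPM in the labelled libraries, and Cgnl1, a protein of cell junctions, at 0.0874, 0 and 0.391 CPM in control, 0.295 and 20.1 CPM in NHD13 and 8.87, 4.95, 7.99 and 8.46 CPM in the labelled libraries. Pi16 was at 1.62, 1.51 and 1.78 CPM in control, 8.46 and 13.3 CPM in NHD13 and 28.9, 29.7, 40.1 and 19.5 CPM in the labelled libraries, with a log2 fold change over NHD13 of 1.62 ± 0.29 (SE, adjusted p = 0.00972). Gm13710, an unnamed gene model, was at 0.0874, 0.504 and 0.391 CPM in control, 0.6396 and 0.2598 CPM in NHD13 and 8.27, 8.15, 7.94 and 6.27 CPM in the labelled libraries, so that NHD13 was near control, and its log2 fold change over NHD13 was 4.27 ± 0.68 (SE, adjusted p = 0.00624). AI839979 was at 0 to 0.478 CPM in control, 0.519 to 1.38 CPM in NHD13 and 4.23 to 8.38 CPM in the labelled libraries. Olfm1, a secreted olfactomedin, was at 0.0434 to 0.961 CPM in control, 4.23 to 28.9 CPM in NHD13 and 8.01 to 11.4 CPM in the labelled libraries. Ly6k was at 0.0874, 0.202 and 0.521 CPM in control, 25.3 and 0 CPM in NHD13 and 44.5, 25.8, 10.3 and 20.3 CPM in the labelled libraries, and Plekhh2, at 0 in control and in NHD13 replicate 2, at 3.31 to 15.6 CPM in the labelled libraries. The NHD13 libraries disagreed in Itga1, Cgnl1, Ly6k and Plekhh2. Nsg2 was at 0.856 to 1.005 CPM in control, 5.35 to 15.2 CPM in NHD13 and 28.0 to 48.8 CPM in the labelled libraries, Unc5cl at 1.005 to 3.26 CPM in control, 10.5 to 18.4 CPM in NHD13 and 20.02 to 33.4 CPM in the labelled libraries, and 0610040J01Rik at 0.218 to 1.39 CPM in control, 1.66 to 9.102 CPM in NHD13 and 16.2 to 39.8 CPM in the labelled libraries. Sept10, a septin whose name the table holds as a date, was at 3.996 to 6.09 CPM in control, 18.8 to 48.9 CPM in NHD13 and 38.6 to 68.9 CPM in the labelled libraries. The other members were Apba1, Myo18b, Otogl, Mrc2, Tmem26, Tmem132a, Fam20a, Tns4, Trim66, Myzap and Myadml2, whose labelled values all lay between 3.06 CPM (Fam20a) and 19.8 CPM (Apba1).

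Sorted by families of gene names, members were 7 of the 251 ion channels and transporters with 50 or more counts in each labelled library, 6 of 77 adhesion genes, 4 of 73 cytokines and their receptors, 3 of 150 regulators of small GTPases, 2 of 83 metabolic enzymes, 2 of 379 transcription factors and 7 of 466 non-coding or unnamed genes. Members were also 2 of 14 Fc and immunoglobulin-like receptors and 1 of 6 TALE genes. They were 0 of 34 G protein-coupled receptors, 0 of 33 extracellular matrix and protease genes and 0 of 16 receptor tyrosine kinases and ligands. Over all 9282 genes with such counts the share was 1.00%. That base leaves out X- and Y-linked genes, which the family counts keep. These families are lists of gene names and do not hold every gene of a class. Of 12 Hox genes with such counts 5 were members.

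A member is an outcome of where the line was drawn. Just inside the factor of 6 stood Sgip1 (ratio of the lowest labelled to the highest control library 6.09), Mira (6.10), Apba1 (6.11), Ahnak (6.14) and Unc5cl (6.14). Just outside stood Gria2 (5.97), Itgam (5.87), Ctsh (5.74), Rapgefl1 (5.56) and Cd209a (5.48). The median ratio over the members was 12.4.

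To see how far the choice carried over to a library that did not make it, the rule was applied with each library left out in turn. Without replicate 1, 2, 3 or 4 labelled NHD13/MSI2 it chose 100, 94, 99 and 123 genes, of which 94, 93, 94 and 100 also stood at least 6 times above the highest control in the library left out. For replicate 4 that was 81.3%, and 1.32% of all genes with 50 or more counts in the other 3 passed there. The control libraries that chose the genes also set the level to pass. That fixes a part of these counts, and they support nothing by themselves. Irf8, Cxcr2, Itgam and Tcf7 were among the 23 that did not. Without control replicate 1, 2 or 3 the rule chose 103, 107 and 98 genes, and 93 passed in the left-out library each time, which is the set itself.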

How the data were processed

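Per the labels, RNA of sorted CD45.2 LSK cells was made into Illumina libraries, and the submitters' processing notes name mm9, STAR, HTSeq and DESeq, with no versions and no strand setting. The deposited table holds raw counts of reads per gene, with a column for each of 9 libraries. Below the rows whose names had turned into dates, names and counts were out of step: 11942 names were moved down by 2 rows, leaving 13 rows without a name (0.0253 to 0.0323% of counts), which were not used. Among 80 ribosomal protein names, 72 then had a mean of 1000 or more counts, against 60 unmoved.

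CPM used the column totals. Calls came from edgeR 4.0.16 in R 4.3.3 (TMM factors, filterByExpr by group, quasi-likelihood test on all 9 libraries, 13355 genes, Benjamini-Hochberg adjusted p under 0.01), and the script was tested on simulated data. DESeq2 1.42.0, other factors, filters, thresholds and a replicate block were alternatives, as was leaving out each library. A 0 allows up to 3 counts (0.130 to 0.156 CPM), for counting error only. The members, gene lists and motifs were chosen with earlier results of these data known. Named in detail were the 20 members with the highest ratio and the 20 with the highest level, the 10 whose NHD13 place was nearest 1 and the 10 nearest 0, those past a threshold over NHD13, members of the lists, and 5 genes on each side of the factor of 6. Positions are from GENCODE M21 on GRCm38 for 92 members and were not converted from mm9. The values of 1 member and of some genes on the lists are not reported here.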

Additional observations from a re-analysis of the deposited data

Results flagged for a closer look

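In 8 of the 93 members a library labelled NHD13/MSI2 lay far from the other 3, its gap to the nearest being wider than Dixon's limit for 4 samples allows. The limit is passed by about 1 in 20 groups of unselected, normally spread values. The members were chosen on these same CPM values, so the 8 of 93 cannot be set against that rate. Of the 8, 7 were in replicate 4, the library with the lowest TMM factor. In 4 members replicate 4 was the highest. Sept10 had 68.9 CPM in it, against 38.6 to 39.4 CPM elsewhere. Hs3st3b1 was at 127 CPM against 36.7 to 46.7 CPM, Mgst2 at 108 CPM against 48.3 to 53.1 CPM, and Mira at 164 CPM against 86.1 to 99.0 CPM. In 3 members it was the lowest. Ly86 was at 177 CPM against 312.5 to 332 CPM, Gm13710 at 6.27 CPM against 7.94 to 8.27 CPM, and Tmem132a at 3.67 CPM against 6.94 to 7.47 CPM. The remaining gene was Upk1b, at 23.6 CPM in replicate 3 and 9.61 to 11.8 CPM in the others. The part of replicate 4's composition in these values was not tested.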

How the results depend on the processing

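The number of members, 93, was 162 with a factor of 3, 57 with a factor of 10 and 156 with the ratio of group means, and 94 to 123 with 1 library left out. The median NHD13 place, 0.728, was 0.711 to 0.811 with 1 library left out, and 0.688 to 0.754 with TMM library sizes or a pseudocount of 2 or 0.1 CPM. In NHD13/MSI2 over NHD13, the 13 members called became 35 with DESeq2, 29 at an adjusted p under 0.05, 2 with only these 2 groups in the fit, and 4 to 13 with 1 library left out. In NHD13 over control, the 49 became 74 with DESeq2, 22 with only those 2 groups, and 26 to 57 with 1 library left out. The cause of these shifts was not tested. Shares of all tested genes under these settings are not given here, so the counts describe the members only. The replicate block gave 7 and 33. Same-numbered libraries correlated at −0.0716 to 0.194 in 7 pairs, 2 of them over 0.1, and 5 of 9 libraries were nearest to their own number, so the numbers are not taken to pair libraries.

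With names left as deposited, where a moved name points to another row, 7 members had the opposite sign in NHD13 over control: Nsg2 (−0.12), Pld4 (−0.65), Rapgef3 (−0.19), Rasgrf2 (−0.95), Stox2 (−1.86), Tifab (−0.68) and Tmem132a (−5.32), on the log2 scale. With 2 NHD13 libraries, a missed threshold does not show that values were alike.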
